A study of Mus musculus with 15 samples.

Results

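The genes described here are the members of the transforming growth factor beta (TGF-beta) and bone morphogenetic protein (BMP) pathway, followed through the epithelium of the mouse uterus with and without Notch1 overexpression. They were taken by symbol. A gene was a member if its symbol named a Bmp, Gdf, inhibin or activin subunit, Tgfb, Ltbp, Smad, Acvr, Bmpr, Fst, Nog, Grem or Id1 to Id4 gene. Of the 28269 genes listed in any of the tables, 65 were members. The pattern also took in genes that match by name and are neither ligands nor transducers, such as Bmp1, a procollagen protease, Tgfb1i1, which encodes a focal adhesion protein, and Tgfbi, which encodes a secreted matrix protein. RNA was sequenced in 15 libraries, 3 in each of 5 groups, all from day 4. The uterine cavity is lined by luminal epithelium (LE), and the glands that open into it are made of glandular epithelium (GE). Wild-type LE, wild-type GE, E-OEX LE, E-OEX GE and U-OEx LE were the groups, and both E-OEX and U-OEx carry the genotype label of Notch1 overexpression. What the letters E and U stand for, the promoter or recombinase that drives Notch1, the strain, the age and whether day 4 is counted from mating are not given in the sources used here. The series' title names overactivated Notch1 signalling in the uterine epithelium as its topic, and the design text covers wild type and E-OEX without naming U-OEx.

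TGF-beta, activin, BMP and most GDF proteins are secreted dimers that bind pairs of type I and type II serine-threonine kinase receptors. These receptors phosphorylate SMAD proteins that enter the nucleus with Smad4. TGF-beta is secreted in a latent complex held in the matrix by latent TGF-beta binding proteins, and BMPs and activins are held in check by secreted antagonists such as noggin and follistatin. Id genes, which encode inhibitors of helix-loop-helix transcription factors, are textbook targets of BMP signalling, and in the uterus BMP2 is known for its part in preparing the stroma for the embryo.

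Notch1 itself was listed in U-OEx LE alone, at scaled read counts of 2789 to 3524, so its overexpression could not be checked against wild type and its level in E-OEX was not analysed here. Values are scaled read counts on the deposited scale, given in the order of replicates 1, 2 and 3 or as mean ± SD with n = 3, and the scale of one genotype need not be that of another. Differences between genotypes were therefore computed from reads of the shared genes, rescaled together. U-OEx LE libraries held 13541644 to 14981505 recovered reads in listed genes, and the other libraries 1980800 to 4797424. In wild type 6414 genes are listed and in E-OEX 4903, all of them with an absolute log2 ratio of the GE and LE means of about 1 or more, whereas U-OEx has 27946. Of the members, 32 were in the wild-type tables, 29 in the E-OEX tables, 22 in both and 65 in the U-OEx tables. A member outside a table was not analysed there and is not at 0. Nothing in the labels says that replicates came from separate animals, so p-values measure the spread between these libraries. Markers of stroma, which underlies the epithelium, were abundant in the libraries labelled GE. The summed scaled count of the 8 stromal markers that all groups list was 34363 to 101130.0 in wild-type GE and 76819 to 91582 in E-OEX GE, each as deposited. It was 521 to 2429 in E-OEX LE. In wild-type LE it was 369, 7741 and 2477, and replicate 2 stands apart: 22 of the 31 members above 0 in wild-type LE had their highest value in it, against 42.3% of all genes listed there. In such bulk libraries, fewer cells of a type and less RNA per cell cannot be told apart.

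Members changed in each of the comparisons made between genotypes, and their counts are set here beside the share of all genes that changed. In E-OEX LE against wild-type LE, 2 of 22 members passed the threshold of 0.05 on the adjusted p-value from limma, 1 higher and 1 lower, where 10.7% of all genes tested passed (5.12% higher and 5.54% lower). The count was 1 to 4 when single libraries were left out. It was 1 without wild-type LE replicate 2 or 3 or E-OEX LE replicate 1 or 2, and 4 without wild-type LE replicate 1 or E-OEX LE replicate 3. In the same libraries 2 of 5 luminal markers (Calb1 and Lpar3) were lower and Ltf was higher. Of 8 stromal markers tested Postn alone passed, and it was higher. The part of these markers was not tested. In E-OEX GE against wild-type GE, 6 of 22 members passed, where 23.5% of all genes did. Of these 5 were higher, where 9.72% of all genes were called higher, and 1 was lower, where 13.8% were. The median log2 fold change of the members was 0.50 against 0.05 for all genes in that comparison. On the deposited scale both medians were higher, at 0.97 for members and 0.50 for all genes, and the share of higher genes among all calls moved from 41.3% to 71.6%. In U-OEx LE against wild-type LE, 17 of 32 members passed, 11 higher and 6 lower, where 56.9% of all genes passed (29.1% higher and 27.8% lower), and the median was 0.13 for members and 0.09 for all genes. The count was 12 to 19 when single libraries were left out, and 18 of 31 without wild-type LE replicate 2. In these libraries 3 of 5 gland markers tested (Cxcl15, Foxa2 and Lif) were higher and Spink1 lower, and 3 of 4 general epithelial markers (Cdh1, Cldn3 and Epcam) were lower than in wild-type LE. Of the 5 luminal markers 3 (Calb1, Lpar3 and Wnt7a) were lower and Ltf was higher. The part of these markers' changes in those of the members was not tested. In U-OEx LE against E-OEX LE, 6 of 26 members passed, 3 in each direction, where 15.0% of all genes passed (6.97% higher and 8.05% lower). That count was 3 without E-OEX LE replicate 2, and 1 without U-OEx LE replicate 1 or 3. Some markers also moved between these groups. Higher were Postn (1 of 10 stromal markers tested), Acta2 (1 of 8 of smooth muscle and pericyte) and Emcn and Pecam1 (2 of 6 of endothelium). So were Itgam (1 of 3 of immune cells) and Ltf (1 of 5 luminal markers). Emcn had a mean scaled count of 0 in E-OEX LE and 2.77 in U-OEx LE. The luminal markers Calb1 and Lpar3 were lower, and no other marker on the lists passed. The part of these changes was not tested. The E-OEX LE and U-OEx LE comparisons with wild type share the wild-type LE libraries, so their values are set side by side and are not independent. Listing in wild type and E-OEX also used the LE and GE values compared here, so the members were not chosen independently of them. All 11 members called higher in U-OEx LE were higher in GE than in LE in wild type. So were 27 of the 32 members listed and 57.0% of all genes listed in wild type. That share among all genes called higher is not given here, so the 11 are not set apart from other genes. Of the 6 called lower, Bmp5, Smad3 and Acvr1 were higher in LE, and Tgfbr3, Bmp3 and Tgfb1i1 in GE. The part of the listing in these calls was not tested. In E-OEX LE against wild type the median was -0.06 for members and -0.09 for all genes (0.08 and 0.08 on the deposited scale, with the share of higher genes among all calls moving from 48.0% to 58.6%), and in U-OEx LE against E-OEX LE it was 0.34 and 0.06 (0.47 and 0.19 on the deposited scale).

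The Id genes are described first, since Id1 was the member that changed in each comparison with wild type. The promoters of Id2, Id3 and Id4 are printed, and Id1 had no window. They are printed because Id1 and Id3 rose in U-OEx LE against wild type, and Id2 and Id4 were lower there than in E-OEX LE. These are different baselines, so no opposite change of the Id genes is shown. Id2 was not listed in wild type and Id3 was not listed in E-OEX. In U-OEx LE, Id4 did not pass against wild type, and Id1 was also below E-OEX LE without passing. RefSeq windows of 250 bases before the annotated start on GRCm38.p6 matched 46 of the 65 members, and those of Id2 (chr12:25096093-25096342, minus strand), Id3 (chr4:136143572-136143821, plus strand) and Id4 (chr13:48260866-48261115, plus strand) read, 5′ to 3′ along the gene's strand:
Id2: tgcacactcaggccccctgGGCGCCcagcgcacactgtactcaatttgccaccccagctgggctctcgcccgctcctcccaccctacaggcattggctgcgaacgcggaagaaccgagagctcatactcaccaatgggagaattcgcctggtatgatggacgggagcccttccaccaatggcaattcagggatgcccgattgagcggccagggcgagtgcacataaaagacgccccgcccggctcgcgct
Id3: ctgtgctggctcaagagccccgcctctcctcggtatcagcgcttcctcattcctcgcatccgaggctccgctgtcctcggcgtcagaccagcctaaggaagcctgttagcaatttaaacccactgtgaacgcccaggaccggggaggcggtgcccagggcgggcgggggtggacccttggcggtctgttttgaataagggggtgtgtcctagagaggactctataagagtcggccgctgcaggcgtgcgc
Id4: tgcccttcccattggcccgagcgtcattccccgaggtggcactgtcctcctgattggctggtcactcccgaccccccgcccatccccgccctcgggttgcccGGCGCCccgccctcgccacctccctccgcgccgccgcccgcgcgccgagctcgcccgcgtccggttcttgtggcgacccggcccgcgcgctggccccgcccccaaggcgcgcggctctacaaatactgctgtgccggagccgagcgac
The capitals mark GGCGCC, a GC-rich element known to be bound by SMAD proteins. Both strands were searched, and the element is its own reverse complement. It starts at position -231 in Id2 and at -148 in Id4, counted from the annotated start, and it is not in these letters of Id3. Of all 32817 windows 9.59% hold it, as do 13 of the 57 windows of members (22.8%). The element GTGGGAA, which the Notch partner RBPJ is known to bind, is in none of these 3 windows, in 3 of the 57 members' windows (Bmpr2, Smad5 and Smad9) and in 5.42% of all windows. The palindromic SMAD element GTCTAGAC was found in 0 of the 57 and in 0.168% of all windows. A match is a description of the letters and not a measured site. The positions are counted from the RefSeq start. The GENCODE M21 models start further upstream in Id2 (chr12:25093799-25097140) and Id3 (chr4:136143497-136145755), so their windows lie inside those models. The Id4 window lies before its model (chr13:48261228-48266026).

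Id1 (ENSMUSG00000042745, chr2:152736251-152737410, GRCm38) had scaled counts of 589, 309 and 399 in wild-type LE, with 3337, 3698 and 4696 in E-OEX LE and 2318, 2888 and 3204 in U-OEx LE. In GE it had 1083, 1344 and 814 in wild type against 7496, 11430.1 and 8475 in E-OEX. All libraries with Notch1 overexpression lay above all wild-type libraries of the same epithelium. On the log2 scale the change was 3.04 (SE 0.44 and adjusted p = 0.0043 by limma) in E-OEX LE, 2.62 (SE 0.26 and adjusted p = 0.000144 by limma) in E-OEX GE and 2.71 (SE 0.32 and adjusted p = 0.000218 by limma) in U-OEx LE, each against wild type. These 3 calls held under every alternative setting run. Id1 in U-OEx LE and in E-OEX LE was not separated by the test (limma adjusted p = 0.202), although the 3 libraries of each did not overlap and those of U-OEx were lower.

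Among the other Id genes, Id2 was outside the wild-type tables. It had 1786, 2467 and 3944 in E-OEX LE and 5630.4, 6953 and 6783 in E-OEX GE. U-OEx LE held 495, 661 and 685, where all libraries were lower than any of E-OEX LE. Its log2 fold change in U-OEx LE against E-OEX LE was -2.22 (SE 0.39 and adjusted p = 0.0108 by limma). The adjusted p was 0.0629 to 0.0775 without U-OEx LE replicate 1 or 3, and ran from 2.91e-05 to 0.0775 over 14 alternative settings. Id4 moved the same way between these groups. Its counts were 351, 453 and 697 in E-OEX LE and 92.8, 193 and 98.9 in U-OEx LE, with a log2 fold change of -2.11 (SE 0.45 and adjusted p = 0.0196 by limma). That adjusted p was 0.0549 to 0.106 without E-OEX LE replicate 2 or U-OEx LE replicate 1 or 3, and ran from 0.000696 to 0.106 over 15 alternative settings. Against wild type Id4 passed in GE and not in LE, but the test of that difference did not pass (limma adjusted p = 0.995). Wild-type LE held 295, 96.3 and 108 and neither E-OEX LE (adjusted p = 0.129 by limma) nor U-OEx LE (0.667) passed, but E-OEX LE did in a fit over all 5 groups (adjusted p = 0.0097) and without wild-type LE replicate 1 (adjusted p = 0.0383). In GE the counts were 382, 554 and 281 in wild type against 1184, 1357 and 1281 in E-OEX, without overlap, and the log2 fold change of 1.24 (SE 0.27 and adjusted p = 0.00961 by limma) held in every alternative. Id3 was outside the E-OEX tables. It had 418, 260.1 and 197 in wild-type LE, 595, 1484 and 1288 in U-OEx LE and 1195, 1461 and 1074 in wild-type GE. U-OEx LE was above wild-type LE in all libraries, with a log2 fold change of 1.88 (SE 0.44 and adjusted p = 0.00707 by limma) that held in every alternative.

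**Figure D1:**
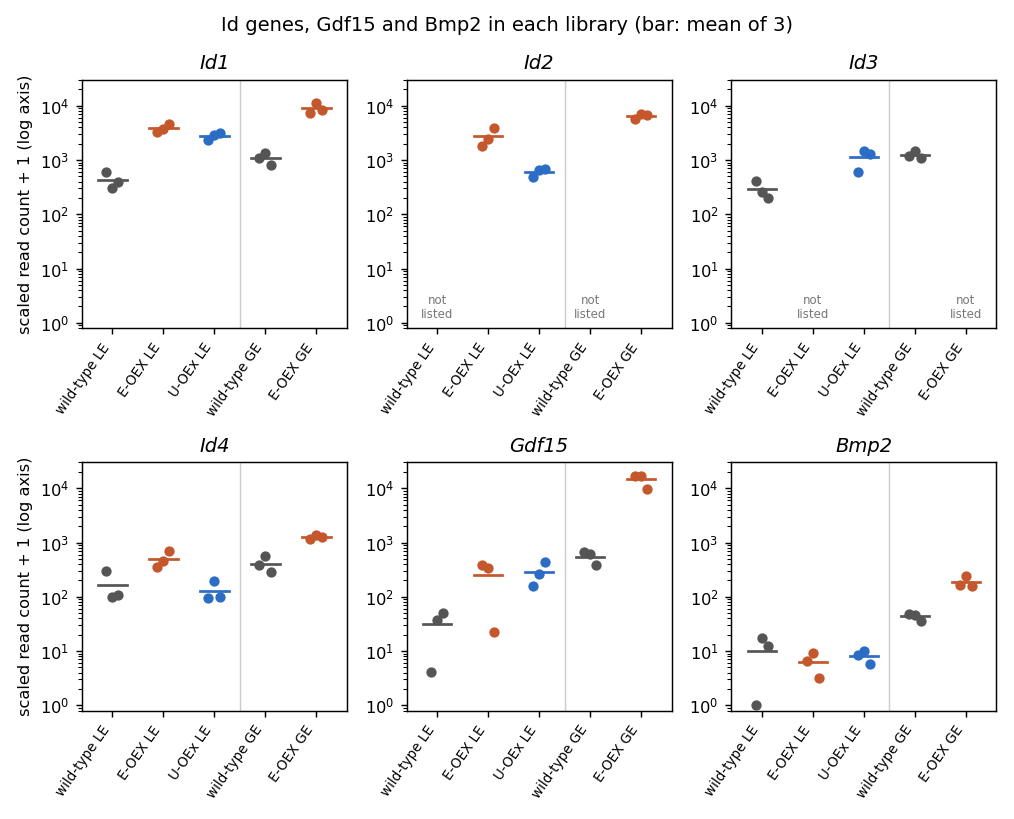
Scaled read count + 1 (log axis) of Id1, Id2, Id3, Id4, Gdf15 and Bmp2 in each library (points) with the mean of 3 (bar), by group; "not listed" marks groups whose tables do not hold the gene. Id1 stands higher in every Notch1-overexpressing group than in wild type, Gdf15 reaches its highest values in E-OEX GE, and Id2 and Id4 are lower in U-OEx LE than in E-OEX LE.

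Among the TGF-beta ligands, Tgfb1 and Tgfb2 rose in U-OEx LE. Tgfb1 (ENSMUSG00000002603, chr7:25687002-25705077) had 79.8, 61.4 and 51.4 in wild-type LE, with 369, 187 and 126 in E-OEX LE and 653, 724 and 659.8 in U-OEx LE. The 3 groups did not overlap, with U-OEx highest and wild type lowest. Tgfb1 changed by 3.38 (SE 0.30 and adjusted p = 5.92e-05 by limma) on the log2 scale in U-OEx LE against wild type, which held in every alternative. In E-OEX LE Tgfb1 did not pass (limma adjusted p = 0.106), but did with DESeq2 (adjusted p = 0.0309), in a fit over all 5 groups (adjusted p = 0.014) and without E-OEX LE replicate 3 (adjusted p = 0.0486). Between U-OEx LE and E-OEX LE the log2 fold change was 1.58 (SE 0.40 and adjusted p = 0.0326 by limma). That adjusted p was 0.057 to 0.131 without E-OEX LE replicate 2 or 3 or U-OEx LE replicate 1, 2 or 3, and ran from 0.00533 to 0.131 over 15 alternative settings. In GE Tgfb1 held 166, 243 and 261 in wild type against 545, 425 and 475 in E-OEX and did not pass (limma adjusted p = 0.115), except on the deposited scale (adjusted p = 0.0144).

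Tgfb2 was a low gene in wild-type LE, at 3.11, 33.8 and 13.4, and held 90.4, 20.9 and 22.7 in E-OEX LE and 204, 418 and 141 in U-OEx LE. U-OEx lay above both other luminal groups, which overlapped. Its log2 fold change against wild-type LE was 4.17 (SE 0.75 and adjusted p = 0.00198 by limma). It was 3.41 without wild-type LE replicate 1 and 4.86 without wild-type LE replicate 2, and the call held in every alternative. Against E-OEX LE it was 2.54 (SE 0.62 and adjusted p = 0.0303 by limma), and 3.13 without E-OEX LE replicate 1. The adjusted p against E-OEX LE was 0.0738 to 0.118 without E-OEX LE replicate 2 or 3 or U-OEx LE replicate 1, 2 or 3, and ran from 0.00277 to 0.118 over 15 alternative settings. In GE, Tgfb2 did not pass (137 ± 24 in wild type against 226 ± 59.9 in E-OEX, limma adjusted p = 0.594). Tgfb3 was outside the wild-type tables and had 60.5 ± 25.3 in E-OEX LE and 105 ± 12 in U-OEx LE, with overlapping libraries (limma adjusted p = 0.292).

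Latent TGF-beta binding proteins tether the latent cytokine to the matrix, and 2 of the 3 that could be compared with wild type rose in U-OEx LE. Ltbp1 had 41.4, 184 and 82.7 in wild-type LE and 3169, 4090.5 and 1653 in U-OEx LE. Ltbp3 had 260.0, 764 and 365 in the former and 3294, 3387 and 2819 in the latter. For both genes the U-OEx libraries lay above those of wild-type LE. On the deposited scale they also lay above those of wild-type GE in Ltbp3 (1817, 2222 and 1820.3) and Ltbp1 (186, 349.8 and 276). U-OEx LE and wild-type GE were not rescaled together for these genes. The log2 fold change against wild-type LE was 4.98 (SE 0.52 and adjusted p = 0.000124 by limma) for Ltbp1 and 2.89 (SE 0.35 and adjusted p = 0.000255 by limma) for Ltbp3, and both held in every alternative. Ltbp4 held 268, 2178 and 714 in wild-type LE, 890.4 ± 259 in E-OEX LE and 412 ± 114 in U-OEx LE and did not pass. The limma adjusted p was 0.245 for U-OEx LE against wild-type LE, and it passed without wild-type LE replicate 1 (adjusted p = 0.0258). Against E-OEX LE the U-OEx libraries were all lower, with a log2 fold change of -1.24 (SE 0.38 and adjusted p = 0.0584 by limma), and passed with DESeq2 (adjusted p = 0.0203). Its value in wild-type LE replicate 2 was the highest of that group. Ltbp2 was listed for U-OEx alone, at 11267, 10956 and 10222, and was the member with the highest scaled count there.

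**Figure D2:**
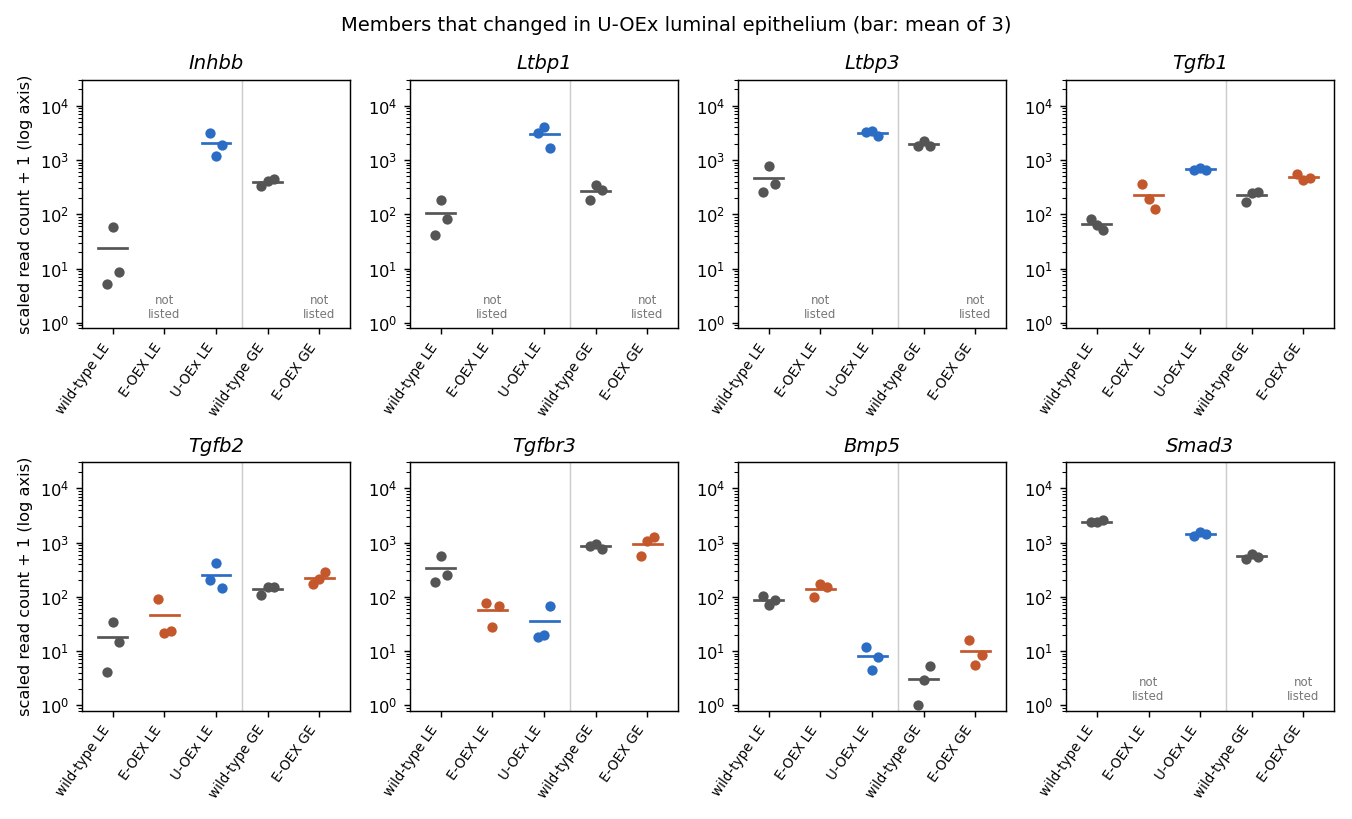
Scaled read count + 1 (log axis) of 8 members in each library (points) with the mean of 3 (bar), by group; "not listed" marks groups whose tables do not hold the gene. Inhbb, Ltbp1, Ltbp3, Tgfb1 and Tgfb2 are higher and Tgfbr3, Bmp5 and Smad3 lower in U-OEx LE than in wild-type LE.

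Of the BMP and GDF ligands, Gdf15 had the largest rise that passed the test. Gdf15 (ENSMUSG00000038508, chr8:70629393-70632456) encodes a cytokine induced by many kinds of cell stress. In GE it had 654, 606 and 376 in wild type against 17126, 16885 and 9783 in E-OEX, where every library exceeded every wild-type one. This was a log2 fold change of 4.27 (SE 0.34 and adjusted p = 5.41e-05 by limma), and the call held in every alternative. In wild-type LE it had 3.11, 36.9 and 50.3, and in U-OEx LE 156, 260.4 and 431. Those groups did not overlap, and the log2 fold change was 3.70 (SE 0.88 and adjusted p = 0.00782 by limma). It was 2.61 without wild-type LE replicate 1 and 4.36 without wild-type LE replicate 3, and passed in every alternative. E-OEX LE held 386, 342 and 21.6. Its replicate 3 lay among the wild-type values while the others lay above them, and the comparison with wild-type LE did not pass (limma adjusted p = 0.2). It passed with DESeq2 (adjusted p = 0.0244) and without E-OEX LE replicate 3 (adjusted p = 0.0309), and without that library the log2 fold change went from 2.69 to 4.18.

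Gdf10, a relative of BMP3, was a gene of the gland libraries. In wild-type GE it had 210.2, 410.4 and 179 and in E-OEX GE 687, 497 and 516. The E-OEX counts were higher as deposited but overlapped those of wild type after rescaling, and the comparison did not pass (limma adjusted p = 0.17), except on the deposited scale (adjusted p = 0.0307). In LE it had 0, 27.7 and 2.24 in wild type, 0, 0 and 0 in E-OEX LE and 2.76, 0 and 1.92 in U-OEx LE. The wild-type signal came mostly from replicate 2, the library with the highest stromal marker sum; how far the 2 are linked was not tested. Neither E-OEX LE (limma adjusted p = 0.244) nor U-OEx LE (0.491) passed against wild-type LE, but E-OEX LE did with DESeq2 (adjusted p = 0.046) and without wild-type LE replicate 1 (adjusted p = 0.0474).

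Bmp2 rose in E-OEX GE. It had 46.7, 45.5 and 35.5 in wild-type GE against 162, 238 and 156 in E-OEX GE, without overlap, and the log2 fold change was 1.62 (SE 0.32 and adjusted p = 0.00533 by limma). It passed without each library in turn, but not in a fit over all 5 groups (adjusted p = 0.311, the highest of 15 alternatives, whose lowest was 5.42e-05). In LE Bmp2 held 9.19 ± 8.37 in wild type, 5.27 ± 3.01 in E-OEX LE and 7.01 ± 2.06 in U-OEx LE and did not pass.

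Bmp5 and Bmp3 were the ligands that fell. Bmp5 was the 1 ligand in the wild-type or E-OEX tables with higher counts in LE than in GE. It had 103, 68.6 and 86.1 in wild-type LE, with 96.8, 171 and 152 in E-OEX LE and 11, 3.55 and 6.72 in U-OEx LE. The U-OEx libraries lay below all others of LE, while wild type and E-OEX overlapped. Bmp5 changed by -3.53 (SE 0.52 and adjusted p = 0.000681 by limma) on the log2 scale against wild-type LE and -4.32 (SE 0.56 and adjusted p = 0.00497 by limma) against E-OEX LE, and both held in every alternative. In GE it had 0, 1.9 and 4.33 in wild type against 15, 4.6 and 7.49 in E-OEX, with overlap after rescaling (limma adjusted p = 0.179). Bmp3, a BMP family member that can oppose other BMPs, had 6.22, 11.3 and 4.47 in wild-type LE, with 0.913, 0.908 and 1.08 in E-OEX LE and 0, 0.889 and 1.92 in U-OEx LE. Both overexpressing groups held 3 reads or fewer in every library. In E-OEX LE Bmp3 did not pass (limma adjusted p = 0.0788), except in a fit over all 5 groups (adjusted p = 0.0145). The level in U-OEx LE was at least 2.66-fold lower than in wild-type LE (limma adjusted p = 0.0168). That adjusted p was 0.0691 without U-OEx LE replicate 1, and ran from 0.00443 to 0.0691 over 14 alternative settings. In GE Bmp3 had 39.9, 55 and 43.3 in wild type against 35.1, 13.8 and 10.3 in E-OEX. The libraries did not overlap, and the log2 fold change was -1.80 (SE 0.50 and adjusted p = 0.0287 by limma). Its adjusted p was 0.0744 to 0.109 without wild-type GE replicate 1, 2 or 3 or E-OEX GE replicate 2 or 3, and ran from 0.00221 to 0.109 over 15 alternative settings. Those settings include the deposited scale (0.0634) and a fit over all 5 groups (0.0822).

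Bmp10 was at the limit of detection. Wild-type LE held 0, 0 and 0, wild-type GE 7.79, 12.3 and 5.19 and U-OEx LE 0.919, 8 and 4.8. U-OEx LE was at least 1.41-fold higher than wild-type LE (limma adjusted p = 0.0212). That bound became 0.889 without U-OEx LE replicate 2, so a bound above 1 rests on that library. The log2 fold change itself stayed at 1.75 or more over 13 alternative settings. Its adjusted p was 0.0631 to 0.0651 without wild-type LE replicate 3 or U-OEx LE replicate 2 or 3, and ran from 0.00641 to 0.0651 over 13 alternative settings, DESeq2 among them (0.0609). The other BMP and GDF ligands did not pass. Bmp7 held 603 ± 70.1 in wild-type GE against 665 ± 273 in E-OEX GE, and 25.2 ± 14.9, 87.3 ± 78.9 and 40.8 ± 4.01 in wild-type, E-OEX and U-OEx LE. Bmp7 passed in E-OEX GE without E-OEX GE replicate 1 (adjusted p = 0.0278), and in U-OEx LE against wild type without wild-type LE replicate 2 (adjusted p = 0.0391). Gdf7 held 165 ± 79.7 and 182 ± 47.2 in wild-type and E-OEX GE and at most 5.12 in any library of LE. Gdf11, a relative of myostatin, held 78.1 ± 20.8 and 139 ± 46.6 in the same groups. Bmp4, Gdf5 and Gdf9 were outside the wild-type tables, with 108 ± 23.2, 6.31 ± 3.87 and 10.4 ± 5.02 in E-OEX GE and lower values in both groups of LE where they were listed.

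The activin beta B subunit gene Inhbb had the largest fold change of the members in U-OEx LE. Inhbb (ENSMUSG00000037035, chr1:119415465-119422248) had 4.14, 58.4 and 7.82 in wild-type LE and 3128, 1184 and 1915 in U-OEx LE. Every U-OEx library was far above the highest wild-type one, which was replicate 2. Wild-type GE held 336, 415 and 452, also below every U-OEx LE library on the deposited scale, without rescaling of these groups together. The log2 fold change in LE was 7.10 (SE 0.82 and adjusted p = 0.000201 by limma). It was 6.44 without wild-type LE replicate 1 and 8.11 without wild-type LE replicate 2, and passed in every alternative. Inhba, the beta A subunit, moved the same way at low counts, from 0, 4.1 and 2.24 in wild-type LE to 26.6, 9.78 and 12.5 in U-OEx LE. The groups did not overlap, and the log2 fold change was 2.67 (SE 0.74 and adjusted p = 0.0149 by limma), or 2.01 without wild-type LE replicate 1. Its adjusted p was 0.0591 without U-OEx LE replicate 1, and ran from 0.0106 to 0.0591 over 14 alternative settings. Against E-OEX LE Inhba did not pass (limma adjusted p = 0.0996), but did in a fit over all 5 groups (adjusted p = 0.0433) and without E-OEX LE replicate 1 (adjusted p = 0.0253). Inha, the inhibin alpha subunit, which pairs with a beta subunit to form inhibin, was outside the wild-type tables. It had 6.39, 5.45 and 3.24 in E-OEX LE and 93.7, 36.4 and 39.4 in U-OEx LE. All U-OEx libraries were higher, with a log2 fold change of 3.05 (SE 0.58 and adjusted p = 0.0146 by limma). That adjusted p was 0.0588 to 0.0848 without U-OEx LE replicate 1 or 3, and ran from 7.55e-05 to 0.0848 over 14 alternative settings.

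**Figure D3:**
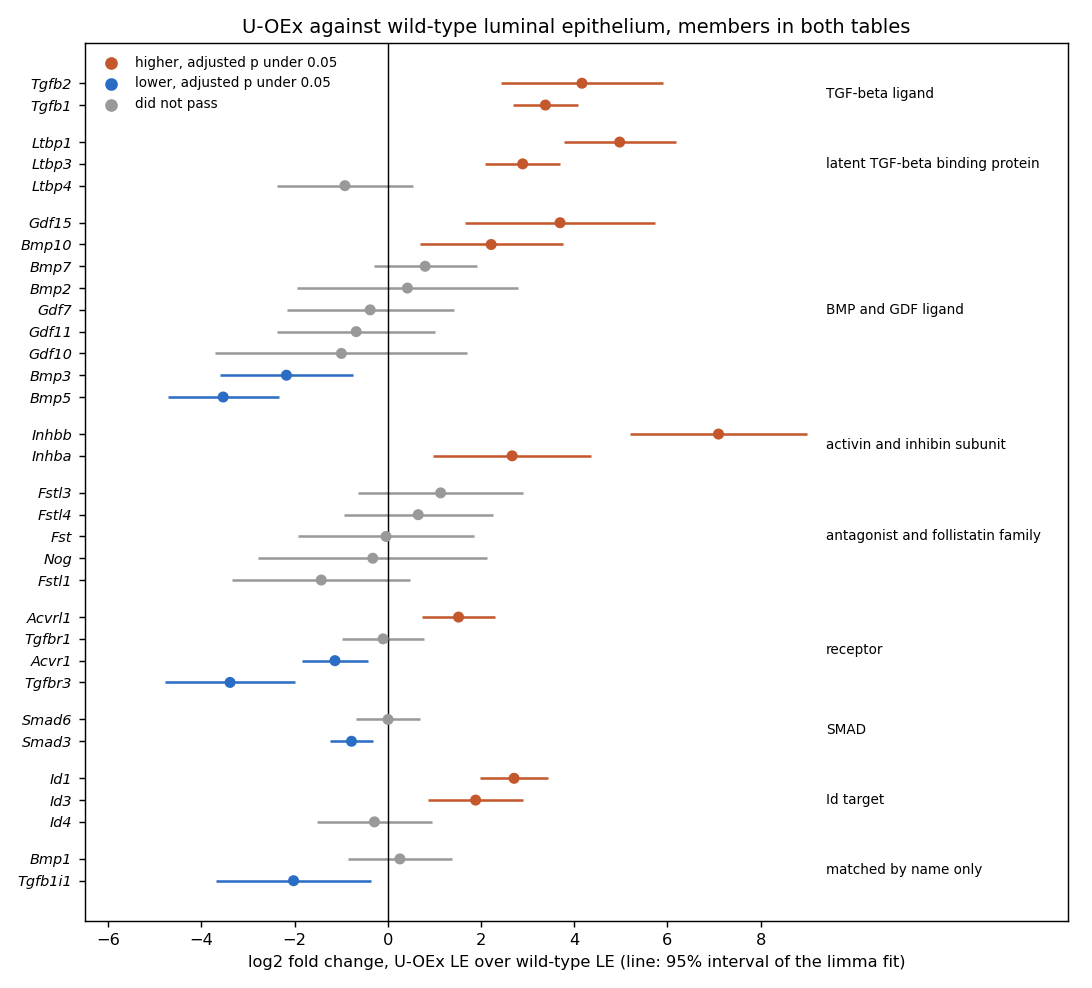
Log2 fold change of U-OEx LE over wild-type LE for the 32 members in both tables, grouped by role; lines are the confidence interval of the limma fit, and colour marks the 11 higher and 6 lower calls. TGF-beta ligands, Ltbp1, Ltbp3, both activin beta subunits, Id1 and Id3 lie to the right, and Bmp5, Tgfbr3, Bmp3, Tgfb1i1, Acvr1 and Smad3 to the left.

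The secreted antagonists and follistatin-like members did not pass in any comparison as fitted here, and 3 of them did under an alternative. Follistatin, Fst, which binds activins, had 6.22, 87.1 and 19 in wild-type LE, with 22.8, 0 and 0 in E-OEX LE and 16.5, 22.2 and 28.8 in U-OEx LE. The wild-type libraries differed widely among themselves, and the limma adjusted p was 0.157 in E-OEX LE and 0.971 in U-OEx LE. Against E-OEX LE it was 0.105, and Fst passed there without E-OEX LE replicate 1 (adjusted p = 0.00458). Noggin, Nog, had 20.4, 31.3 and 19.9 in wild-type GE against 55.1, 109 and 60 in E-OEX GE. The E-OEX libraries lay above the wild-type ones, but the limma adjusted p was 0.0677. Nog passed with DESeq2 (adjusted p = 0.0331), with the replicate block (adjusted p = 0.0495) and on the deposited scale (adjusted p = 0.0184). Fstl1, Fstl3 and Fstl4, relatives of follistatin, held 1456 ± 592, 47.7 ± 27.7 and 276 ± 18.5 in wild-type GE and 2188 ± 175, 96.5 ± 17.2 and 468 ± 165 in E-OEX GE. Fstl1 passed in U-OEx LE against wild type with DESeq2 (adjusted p = 0.0383) and without wild-type LE replicate 1 (adjusted p = 0.0309), from an adjusted p of 0.174.

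Among the receptors, Tgfbr3 fell in LE. Tgfbr3 (ENSMUSG00000029287, chr5:107106570-107289629) encodes betaglycan, a co-receptor that presents TGF-beta2 and binds inhibin. It had 184, 565 and 253 in wild-type LE, with 75.8, 27.2 and 65.8 in E-OEX LE and 17.5, 18.7 and 66.3 in U-OEx LE. Wild type lay above both overexpressing groups, which overlapped. Its log2 fold change was -3.39 (SE 0.60 and adjusted p = 0.00184 by limma) in U-OEx LE, which held in every alternative, and -2.68 (SE 0.57 and adjusted p = 0.0198 by limma) in E-OEX LE. The adjusted p in E-OEX LE was 0.0613 to 0.0905 without wild-type LE replicate 2 or 3 or E-OEX LE replicate 1 or 2, and ran from 0.000172 to 0.0905 over 15 alternative settings. In GE the counts were 878, 934 and 772 in wild type against 557, 1058 and 1237 in E-OEX, with overlap and no call (limma adjusted p = 0.355). Stromal marker sums in LE, on the rescaled counts, were 412 to 7489 in wild type and 7825 to 21152 in U-OEx. Of the 8 stromal markers tested, Postn was higher (mean scaled count 12696, against 12.04 in wild-type LE), Hoxa11 was lower and the other 6 did not pass. The deposited means of those 6 (Vim, Col1a1, Col1a2, Col3a1, Pdgfra and Hand2) were all lower in U-OEx LE. Col3a1, for one, had 146 against 1002 in wild-type LE, and Vim 589 against 1041. Postn was thus the only one of the 8 with a higher mean. In the E-OEX LE comparison the rescaled sums were 416 to 7372 in wild type and 493 to 2062 in E-OEX. The part of stromal RNA in the Tgfbr3 result was not tested.

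Acvrl1, a type I receptor known from endothelium, rose in U-OEx LE. It had 71.5, 97.3 and 51.4 in wild-type LE, with 139.7, 149.9 and 161 in E-OEX LE and 216, 194 and 216 in U-OEx LE. All overexpressing libraries lay above all wild-type ones. Its log2 fold change was 1.52 (SE 0.34 and adjusted p = 0.00548 by limma) in U-OEx LE, which held in every alternative, whereas E-OEX LE did not pass (limma adjusted p = 0.282), and neither did U-OEx LE against E-OEX LE (0.521). Of 7 endothelial markers tested, 2 (Pecam1 and Tek) were higher in U-OEx LE. Cdh5, Kdr, Emcn, Vwf and Cldn5 did not pass, and their deposited means were lower than in wild-type LE. Rescaled sums over the 7 were 187 to 226 in wild type and 228 to 308 in U-OEx. Over the 6 without Tek the deposited sums overlapped, at 179.9 to 219 in wild type and 146 to 260 in U-OEx. The part of these markers in the Acvrl1 result was not tested. Acvr1, a type I receptor for BMPs, went down instead, from 465, 1129 and 854 in wild-type LE to 387, 354 and 323 in U-OEx LE. The groups did not overlap, and the log2 fold change was -1.13 (SE 0.31 and adjusted p = 0.0146 by limma). Its adjusted p was 0.0558 to 0.0833 without wild-type LE replicate 3 or U-OEx LE replicate 1, 2 or 3, and ran from 0.000944 to 0.0833 over 14 alternative settings. Tgfbr1, the type I receptor for TGF-beta, did not pass (1429.7 ± 915 and 1193 ± 125, limma adjusted p = 0.835).

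Smad3, the transducer of TGF-beta and activin signals, fell in U-OEx LE. It had 2339, 2366 and 2571 in wild-type LE, 1309.5, 1551 and 1449 in U-OEx LE and 498, 624 and 542 in wild-type GE. The 3 groups did not overlap on the deposited scale, and U-OEx LE was not rescaled together with wild-type GE. Smad3 changed by -0.78 (SE 0.20 and adjusted p = 0.00989 by limma) on the log2 scale in U-OEx LE. Its adjusted p was 0.0555 without U-OEx LE replicate 1, and ran from 6.59e-05 to 0.0555 over 14 alternative settings. Smad6, an inhibitory SMAD that acts mainly on BMP signals, held 592 ± 157 in wild-type LE and 594 ± 92.6 in U-OEx LE (limma adjusted p = 0.989).

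The members matched by name alone included 1 that changed. Tgfb1i1 had 35.2, 271 and 61.5 in wild-type LE, with 30.1, 25.4 and 13 in E-OEX LE and 13.8, 17.8 and 33.6 in U-OEx LE. Replicate 2 of wild-type LE was far above the others. The log2 fold change in U-OEx LE was -2.02 (SE 0.72 and adjusted p = 0.0425 by limma), and -1.22 without wild-type LE replicate 2. That adjusted p was 0.0685 to 0.16 without wild-type LE replicate 2 or 3 or U-OEx LE replicate 1, 2 or 3, and ran from 0.00251 to 0.16 over 15 alternative settings. Of 6 smooth muscle and pericyte markers tested, Cnn1 and Des were lower in the same comparison, with rescaled sums of 115 to 325 in wild-type LE and 93.9 to 168 in U-OEx LE; their part was not tested. In E-OEX LE Tgfb1i1 did not pass (limma adjusted p = 0.119), but did with DESeq2 (adjusted p = 0.0152) and in a fit over all 5 groups (adjusted p = 0.0374). In GE it moved the other way, from 268, 423 and 266 in wild type to 944, 728 and 748 in E-OEX. The groups did not overlap, and the log2 fold change was 0.90 (SE 0.27 and adjusted p = 0.0413 by limma). The adjusted p in GE was 0.0544 to 0.14 without wild-type GE replicate 1 or 3 or E-OEX GE replicate 1, 2 or 3, and ran from 0.00617 to 0.46 over 15 alternative settings. Smooth muscle markers moved with it: 4 of the 7 tested (Acta2, Actg2, Cnn1 and Myh11) were higher in E-OEX GE, and their rescaled sums were 6236 to 10064 in wild-type GE and 16071 to 18334 in E-OEX GE. In the same libraries 3 of 4 gland markers (Cxcl15, Lif and Spink1) were lower, the epithelial Krt19 was higher, and 0 of 8 stromal markers passed. The part of these cells in the GE results for Tgfb1i1, Bmp2, Gdf15, Id1 and Id4 was not tested. Bmp1 held 353 ± 289 in wild-type LE and 351 ± 26.9 in U-OEx LE (limma adjusted p = 0.666) and passed without wild-type LE replicate 2 (adjusted p = 0.028). Tgfbi was outside the wild-type tables and had 332, 539 and 188 in E-OEX LE and 1599.9, 485 and 2592 in U-OEx LE, which overlapped (limma adjusted p = 0.0831); it passed with DESeq2 (adjusted p = 0.0223) and without U-OEx LE replicate 2 (adjusted p = 0.0356).

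The tables of wild type and E-OEX were selected on the difference between the epithelia, so GE against LE is described without a test. In wild type, 27 of the 32 members listed were higher in GE, where 57.0% of all listed genes were. The median difference in log2(count + 1), GE minus LE, was 2.47 for members and 1.36 for all listed genes. In E-OEX, 28 of 29 members were higher in GE, where 63.9% of all listed genes were, with medians of 3.21 and 1.75. The wild-type members higher in LE were Bmp5 (-5.10), Smad3 (-2.13), Tgfbr1 (-1.44), Acvr1 (-1.27) and Smad6 (-1.26), and in E-OEX Bmp5 alone (-3.91). On the other side the wild-type difference was 6.03 for Gdf7 and 5.79 for Gdf10, the members with the widest ones, then 4.88 for Fstl1, 4.84 for Inhbb, 4.83 for Fstl4 and 4.73 for Gdf15. In E-OEX, where Gdf10 was at 0 in all LE libraries, its level in GE was at least 195-fold higher, and Gdf15 differed by 6.62. Markers of other cells differed between the epithelia in the same direction. The stromal sums are given above. Over the 7 smooth muscle and pericyte markers listed in all groups, the sum was 109 to 336 in wild-type LE and 5018 to 8234 in wild-type GE, with 17.3 to 70.3 and 19206 to 20616 in the LE and GE of E-OEX. Over 6 endothelial markers it was 179.9 to 219 and 2419.9 to 4071 in wild type, and 81.7 to 335 and 2976 to 8773 in E-OEX. Their part in these differences was not tested.

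**Figure D4:**
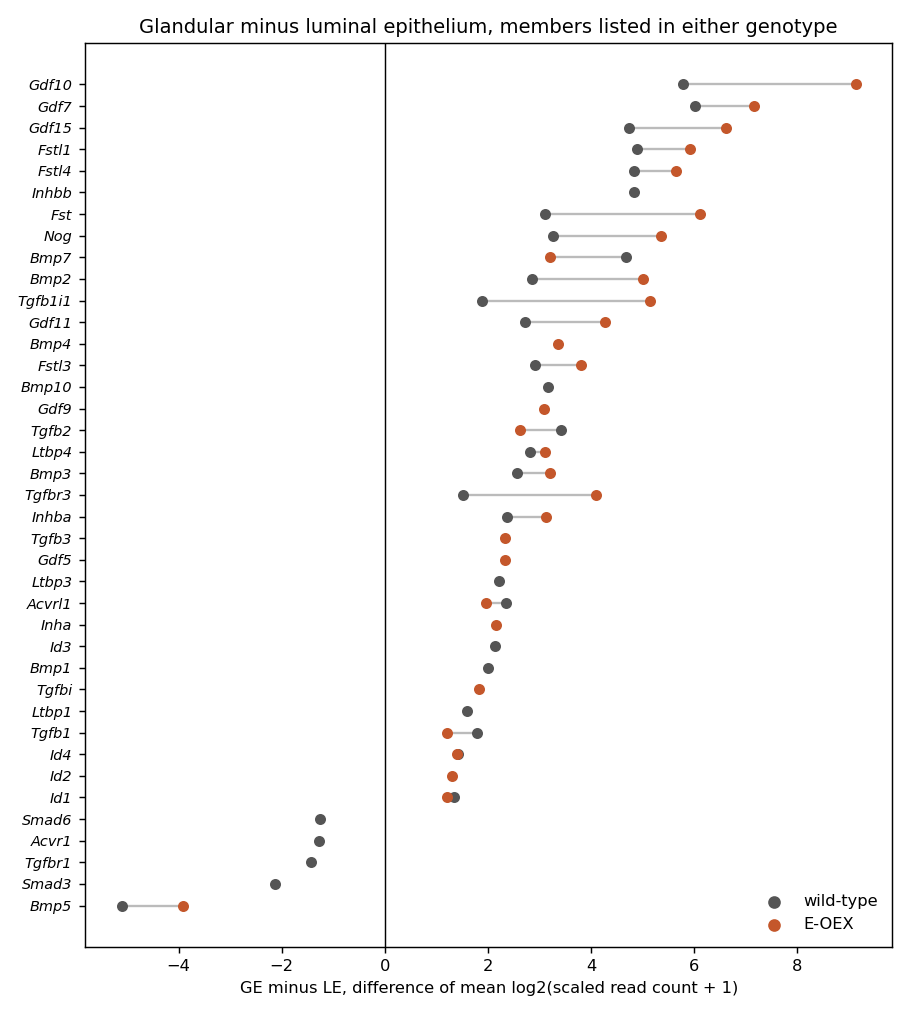
GE minus LE difference of the mean log2(scaled read count + 1) for members listed in wild type (grey) or E-OEX (orange), joined where both list the member. Nearly all points lie to the right of 0, Bmp5 lies far to the left in both genotypes, and Tgfb1i1 and Tgfbr3 are among the members whose 2 points are widely spaced.

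Whether the GE to LE difference itself changed with the genotype was tested for the 22 members in both tables. Both tables list only genes with an absolute log2 ratio of the GE and LE means of about 1 or more. A member that lacked such a difference in wild type or in E-OEX could not be among the 22, so the test was not independent of the listing. Of the 22 members 2 passed, both with a larger GE excess in E-OEX, where 10.7% of all genes passed (5.83% with a larger and 4.91% with a smaller difference). They were Tgfb1i1, with a change of 3.28 (SE 0.87 and adjusted p = 0.0304 by limma), and Tgfbr3, with 2.57 (SE 0.70 and adjusted p = 0.0338 by limma). For Tgfb1i1 the value was 3.89 without wild-type LE replicate 1 and 2.44 without wild-type LE replicate 2. Its adjusted p was 0.05 to 0.0787 without wild-type LE replicate 3 or wild-type GE replicate 1 or 3 or E-OEX GE replicate 1, 2 or 3, and ran from 0.000262 to 0.0802 over 20 alternative settings. For Tgfbr3 the adjusted p was 0.058 to 0.0899 without wild-type LE replicate 2 or 3 or wild-type GE replicate 1, 2 or 3 or E-OEX LE replicate 2 or E-OEX GE replicate 2 or 3, and ran from 0.000301 to 0.0899 over 20 alternative settings. The count was 1 without wild-type LE replicate 2, wild-type GE replicate 2, E-OEX LE replicate 2 or E-OEX GE replicate 1. It was 0 without wild-type LE replicate 3, wild-type GE replicate 1 or 3 or E-OEX GE replicate 2 or 3 (3 or 4 members at an unadjusted p under 0.05), and 4 without wild-type LE replicate 1. With TMM scaling of the reads 0 of the 22 passed by limma (3 at an unadjusted p under 0.05), while edgeR called 1 and DESeq2 4. The median change was 0.97 for members and 0.33 for all genes on the deposited scale. With TMM scaling these medians were 0.68 and 0.07, and that scaling also moved the share of positive changes among all calls from 54.3% to 43.9%. Id1 (limma adjusted p = 0.922), Gdf15 (0.483), Gdf10 (0.123) and Bmp2 (0.325) did not pass. Gdf10 did with DESeq2 (adjusted p = 0.00114) and without wild-type LE replicate 1 (adjusted p = 0.0111), Bmp2 with DESeq2 (adjusted p = 0.0174) and without wild-type LE replicate 1 (adjusted p = 0.0089), and Fst without E-OEX LE replicate 1 (adjusted p = 0.0425).

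A list of 53 other genes of the pathway, none of them members, was followed in the same fits. Against wild-type LE, the median log2 fold change of those tested was -0.74 for E-OEX LE (-0.09 over all genes) and 1.12 for U-OEx LE (0.09 over all genes). For GE it was 0.07, beside 0.05 over all genes. Between the LE of U-OEx and E-OEX it was 0.23, beside 0.06, and for the change of the GE to LE difference 0.72, beside 0.33. In E-OEX LE 2 of 11 tested passed against wild-type LE, where 10.7% of all genes did. Fbn2, a fibrillin of the matrix microfibrils, rose by 5.11 (SE 0.83 and adjusted p = 0.00646 by limma) on the log2 scale, and the change of Tll1, a tolloid protease that cleaves chordin, was -3.75 (SE 0.74 and adjusted p = 0.015 by limma). In E-OEX GE 5 of 12 passed, 2 higher and 3 lower, where 23.5% of all genes passed (9.72% higher and 13.8% lower). Chordin, Chrd, which sequesters BMPs, had a mean rescaled count of 2583 in wild-type GE against 243 in E-OEX GE, and changed by -3.46 (SE 0.30 and adjusted p = 8.62e-05 by limma) on the log2 scale. Tll1 (-3.10, SE 0.41 and adjusted p = 0.000705 by limma) and Crim1, a membrane protein that binds BMPs (-1.30, SE 0.22 and adjusted p = 0.00261 by limma), were also lower. Chrdl2, a chordin relative (2.38, SE 0.38 and adjusted p = 0.00215 by limma), and Amhr2, the receptor of anti-Müllerian hormone (2.04, SE 0.41 and adjusted p = 0.00613 by limma), were higher.

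In U-OEx LE 10 of 23 listed genes were higher and 4 lower than in wild-type LE, where 29.1% of all genes were higher and 27.8% lower. Bambi, a pseudoreceptor that dampens TGF-beta and BMP signals, had a mean rescaled count of 3219 in wild type and 117 in U-OEx, a log2 fold change of -4.65 (SE 0.38 and adjusted p = 3.90e-05 by limma). The others that were lower were Tll1 (-3.89, SE 0.56 and adjusted p = 0.000618 by limma), Zfyve9, a SMAD anchor (-2.41, SE 0.38 and adjusted p = 0.000942 by limma), and Chrd (-2.15, SE 0.76 and adjusted p = 0.0414 by limma). Among those higher, Skil, a repressor of SMAD-driven transcription, changed by 2.59 (SE 0.27 and adjusted p = 0.000122 by limma) and Pmepa1, another inhibitor of TGF-beta signalling, by 1.42 (SE 0.31 and adjusted p = 0.00473 by limma). Msx2, a homeobox gene downstream of BMPs, changed by 3.98 (SE 0.61 and adjusted p = 0.000845 by limma). Nrros, which presents latent TGF-beta on macrophages, changed by 2.58 (SE 0.43 and adjusted p = 0.00136 by limma), and 2 of 3 immune markers (Adgre1 and Lyz2) were higher in the same libraries, with rescaled sums of 560 to 1362 in wild type and 1398 to 2368 in U-OEx; their part was not tested. Htra1, a secreted protease, changed by 2.53 (SE 0.32 and adjusted p = 0.000337 by limma), Neo1, a receptor of BMP co-receptors, by 1.26 (SE 0.33 and adjusted p = 0.0112 by limma), Amhr2 by 2.08 (SE 0.54 and adjusted p = 0.0117 by limma), Fbn2 by 2.16 (SE 0.73 and adjusted p = 0.0353 by limma) and the SMAD corepressor Tgif2 by 1.08 (SE 0.40 and adjusted p = 0.0488 by limma). Against E-OEX LE 2 of 18 passed in U-OEx LE, where 15.0% of all genes did, Nrros with 2.32 (SE 0.48 and adjusted p = 0.018 by limma) and Fbn2 with -3.18 (SE 0.52 and adjusted p = 0.009 by limma). In the change of the GE to LE difference 1 of 12 passed, where 10.7% of all genes did, Fbn2 with -4.12 (SE 0.98 and adjusted p = 0.0166 by limma).

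The U-OEx LE tables hold all members and give their order per kilobase of merged exons, the one scale here on which genes can be compared. Of the 65 members 35 had a mean scaled count of at least 100, and 7 held 3 reads or fewer in every library. Over the 60 with a mean of at least 1 the median was 42.4 per kilobase, against 33.1 for all genes with that mean. Id1 was highest at 2417 per kilobase, then Ltbp2 at 1322, and these 2 did not overlap over their libraries. Id3 (627), Inhbb (488), Tgfbi (413), Acvr1b (387) and Smad4 (379) followed with overlapping libraries. Id3 varied between replicates, from 595 to 1484 in scaled counts, and Tgfbi from 485 to 2592.

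Members that only the U-OEx tables list include most of the receptors and SMADs. Of the 26 such members 16 had a mean of at least 100. The type II receptors Tgfbr2, Bmpr2, Acvr2a and Acvr2b stood at 198, 52.9, 48.3 and 52.5 per kilobase. The type I receptors Bmpr1a and Bmpr1b, for BMPs, stood at 168 and 37.7, against 387 for Acvr1b, which transduces activin. Of the SMADs, Smad4, the common partner, was the highest at 379, and the inhibitory Smad7 stood at 264. The BMP transducers Smad5 and Smad1 stood at 245 and 164, with Smad2, of the TGF-beta branch, at 55.2. Smad3, also of the TGF-beta branch but listed in wild type too, stood at 259 in these libraries, above Smad5 and Smad1. Others listed in wild type were Smad6, at 185, and the type I receptors Tgfbr1, Acvr1 and Acvrl1, at 183, 73.4 and 48.9. Tgfbrap1, Tgfbr3l and Bmp2k were lower, at 78.5, 62.9 and 40.9 per kilobase. The other 10 of the 26 had a mean under 100. There is no wild-type value for those 26 members here, so their levels carry no comparison.

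**Figure D5:**
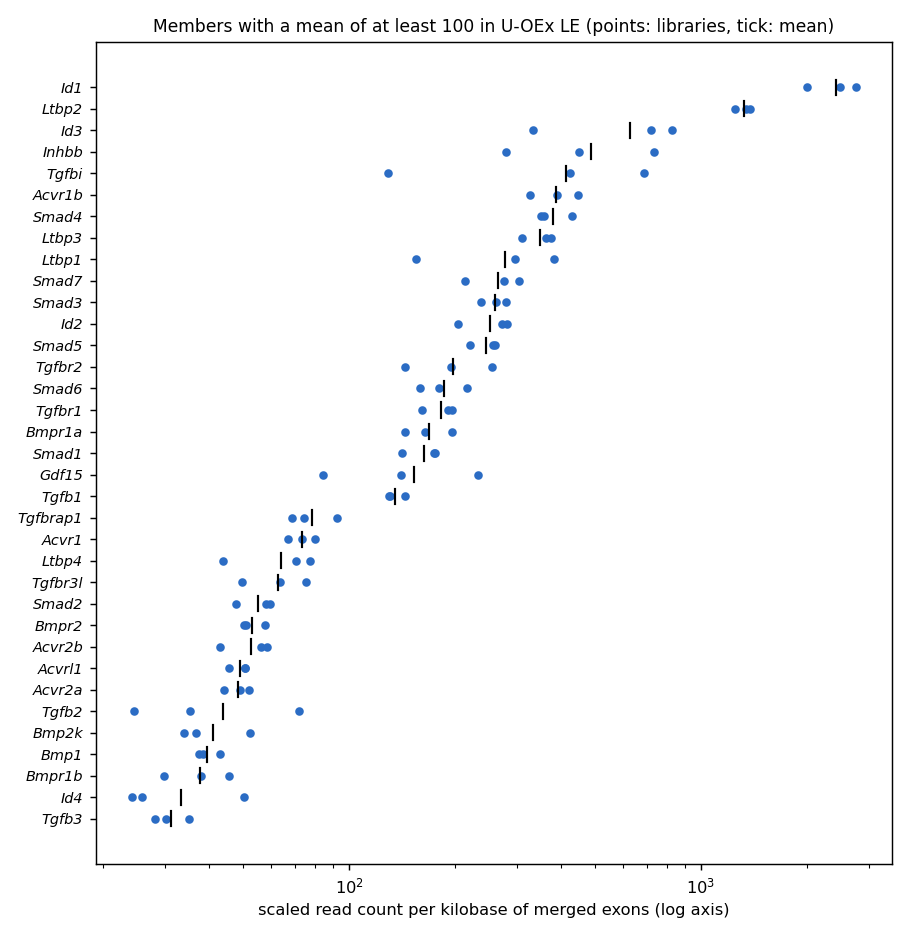
Scaled read count per kilobase of merged exons (log axis) in the 3 U-OEx LE libraries (points) with their mean (tick) for the 35 members with a mean scaled count of at least 100, in order of the mean. Id1 and Ltbp2 lead, and neighbours further down mostly overlap.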

How the data were processed

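Sequencing libraries were made with the NEBNext Ultra kit from total RNA, per the labels' protocols. The submitters' processing notes name the builds GRCm38 and mm10. The aligner, counting tool, annotation, strand setting and scaling method are not given in the sources used here. The authors' deposited values are scaled read counts, handled as a signal. In each library they are whole multiples (within 0.01) of the smallest positive value, and dividing by it gave the reads.

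Genes in both tables were rescaled together with TMM (edgeR 4.0.16) for comparisons between genotypes, and tested with limma 3.58.1 (R 4.3.3; lmFit, eBayes with trend) on log2(value + 1), which understates the change of low genes. Genes with a mean of at least 1 entered, p-values were adjusted by Benjamini-Hochberg over all genes tested, and the threshold was 0.05. The change of the GE to LE difference used deposited values. A group with 3 reads or fewer in every library gives a bound, computed at 3 reads per library and covering counting error only. The code was tested on simulated data. Gene lengths came from GENCODE M21 and promoters from RefSeq (GRCm38.p6). Full depth of the wild-type and E-OEX libraries is unknown. Replicates differed by more than sampling noise (chi-square per degree of freedom 16.6 to 182 within groups).

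Members and gene lists were chosen with earlier results of these data known. All members in the wild-type or E-OEX tables are named, with every library's value where a test passed. Members listed for U-OEx alone are named from a mean of 100, and other pathway genes where they passed. Alternatives were other pseudocounts, filters and scalings, edgeR's quasi-likelihood test, DESeq2 1.42.0, a replicate block, a fit over all 5 groups and leaving out each library. The values of 1 gene of the list of other pathway genes and of 1 marker gene are not reported here.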

Additional observations from a re-analysis of the deposited data

Results flagged for a closer look

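For 2 of the 22 members tested, the difference between glandular and luminal epithelium itself differed between E-OEX and wild type, by the test of that difference. Over all genes tested 10.7% passed. For Tgfb1i1, (E-OEX GE minus LE) minus (wild-type GE minus LE) was 3.28 on the log2 scale (SE 0.87, limma adjusted p = 0.0304), with scaled counts of 123 ± 129 in wild-type LE, 319 ± 89.9 in wild-type GE, 22.8 ± 8.88 in E-OEX LE and 807 ± 119.8 in E-OEX GE. For Tgfbr3 it was 2.57 (SE 0.70, limma adjusted p = 0.0338), with 334 ± 203, 861 ± 82.2, 56.3 ± 25.6 and 950.4 ± 352 in the same groups. Neither passed with TMM scaling of the reads. Of 20 alternative settings, 7 ended the call for Tgfb1i1 and 10 ended that for Tgfbr3. The wild-type LE counts of Tgfb1i1 were 35.2, 271 and 61.5, so that mean came mostly from replicate 2. Both genes were listed in each genotype through the same difference, so the test was not independent of the listing.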

How the results depend on the processing

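Counts of members passing were within 1.5 times the reported one in 14 of 15 settings for E-OEX GE and for U-OEx LE against wild type and 12 of 15 for U-OEx LE against E-OEX LE. They were so in 7 of 15 settings for E-OEX LE against wild type and 7 of 20 for the change of the GE to LE difference, so those 2 counts moved under most settings. In E-OEX LE against wild-type LE the reported 2 members (277 genes) became 6 (453) with DESeq2 and 6 (631) in a fit over all 5 groups, and without single libraries 1 to 4 (56 to 322). In E-OEX GE the 6 (670) became 3 (293) in the 5-group fit, and 4 to 6 (362 to 728) without single libraries. In U-OEx LE against wild-type LE the 17 (3384) became 10 (1287) in the 5-group fit, which tested 2706 of the 5949 genes and 22 of the 32 members, and 12 to 19 (2757 to 3439) without single libraries. Against E-OEX LE the 6 (642) became 1 to 8 (60 to 904) without single libraries. For the change of the GE to LE difference the 2 (315) became 0 with TMM scaling (3 at an unadjusted p under 0.05 by limma), 1 with edgeR, 4 (501) with DESeq2, and 0 to 4 (179 to 449) without single libraries. Where no construction is named, the cause was not tested. Counts higher in GE stayed at 27 and 28 without single libraries. Listed genes had an absolute log2 ratio of about 1 or more in these same libraries, so that stability is no independent check.

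The replicate numbers of the titles did not show a pairing of the libraries. In no comparison did all 3 same-numbered correlations exceed 0.1, which does not exclude a pairing. With the replicate numbers as a block, 2, 7, 17, 6 and 2 members passed in these 5 comparisons, in this order (292, 718, 3182, 612 and 314 genes).

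For single members 17 values changed sign, none of them past the threshold in the reported fit; the cause was not tested. In E-OEX LE against wild type Bmp2 became 0.72 with a pseudocount of 0.1, and without single libraries Bmp2 ran from -1.45 to 0.58 and Inhba from -0.38 to 0.85 (log2 fold changes). Tgfbr3 in GE became 0.068 on the deposited scale. In U-OEx LE against wild type Bmp2 became -0.35 with edgeR and -0.46 with DESeq2, and without single libraries Bmp2 ran from -0.86 to 1.18, Id4 from -0.62 to 0.29 and Gdf10 from -2.09 to 0.32. Against E-OEX LE Tgfb1i1 became 0.0092 in the 5-group fit, and without single libraries Tgfb1i1 ran from -0.55 to 0.026, Bmp2 from -0.088 to 0.74, Bmp3 from -0.29 to 0.17 and Gdf15 from -0.60 to 1.4.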
